A study of Mus musculus with 28 samples.

Results

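The 4 Bru-seq libraries described here, of 28 samples in the series, compare nascent RNA from wild-type (WT) mouse embryonic stem cells 5 min after release from CDK9 inhibition with nascent RNA from the same cells in steady state. The members were taken by their labels alone: both WT libraries labelled with bromouridine (BrU) for 5 min right after flavopiridol was removed, and both WT libraries labelled for 10 min without the drug. Of 24984 genes in the tables, 11162 had a mean RPKM (reads scaled to gene length and library size) above 0.5 in at least one of these conditions and were tested. The series asks what Elongin A, encoded by Eloa, does for transcription by RNA polymerase II, and its other libraries are cells labelled EloA null, a 10-min recovery and 16 samples of CUT&RUN or ChIP.

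All cells were described as CCE28 embryonic stem cells, grown with LIF and 2 kinase inhibitors (the 2i medium) and depleted of the embryonic fibroblasts that serve as feeders. The labels' protocol for the BrU pulse names the line CJ7 instead, and which name holds for these libraries is not given. The recovery libraries, called FB5 by the labels, came from cells that had 60 min of 1 µM flavopiridol and then 5 min of 2 mM BrU without the drug. The steady-state libraries, called B10, had 2 mM BrU for 10 min and no flavopiridol, so the conditions differ in drug history and in the length of the pulse. No library of cells still in flavopiridol was analysed here. Each condition had 2 libraries, described as independent, and p-values measure only the spread between such libraries.

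CDK9 is the kinase of the positive elongation factor P-TEFb, which frees RNA polymerase II from the pause just downstream of the promoter. Flavopiridol blocks that step, while polymerases that have already left the pause can go on to the end of the gene, and washing it out lets paused polymerases enter gene bodies again. BrU is built into RNA as it is made, so the reads of a pulse show where transcription took place during those minutes. Reads over a whole gene do not separate polymerases released after the wash from any that were further downstream, and the part of each in the values below cannot be told apart.

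The libraries held 23896841 and 27923474 reads in steady state and 9857522 and 12666280 at 5 min, as worked out from the RPKM steps. A tested gene had a median of 803 reads in steady state and 212 at 5 min, and 891 tested genes had under 20 reads in both. All 8 embryonic stem cell markers were above 0.5 RPKM in all 4 libraries, with summed levels from 157 to 218 RPKM. The 10 feeder fibroblast markers summed to 1.47 to 1.92 RPKM, the 5 neural markers to 0.357 to 1.36, the 4 endoderm markers to 0.103 to 0.455 and the 3 mesoderm markers to 0.0472 to 0.405.

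RPKM are shares of each library, and steady state and recovery stand in separate tables. The median log2 ratio of deposited RPKM, 5 min over steady state, was -0.57, so each library was centred on its own median before testing. A centred log2 change above 0 therefore means a larger share of nascent RNA relative to the typical gene, and says nothing about whether total transcription rose or fell. Relative to the typical gene, 3714 genes were higher at 5 min and 3945 were lower, which is 33.3% and 35.3% of those tested (limma on log2(RPKM + 0.1), Benjamini-Hochberg adjusted p under 0.05). The other 3503 did not pass. Without centring 1970 genes were higher and 6082 lower, so that 24.5% of the called genes were higher, against 48.5% with it, and the median of all genes became -0.59 in place of -0.04.

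More than 2-fold higher with no overlap between the libraries were 2041 genes (18.3%), and more than 2-fold lower were 1672 (15.0%). The changes had a lower quartile of -0.73 and an upper quartile of 0.72, against a median standard error of 0.15 and a median log2 difference between the libraries of a condition of 0.2 at 5 min and 0.11 in steady state. Of the lower genes, 1927 entered the test only through their steady-state level and 116 were listed at 0 in both recovery libraries. Of the higher genes, 301 entered only through their level at 5 min. The libraries labelled EloA null were made by the same steps from other cells, and 99.0% of the genes higher in WT had a positive change there, as did 49.2% of all tested genes. A negative change there was seen for 98.9% of the genes lower in WT and for 50.8% of all.

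Gene length sorted the changes into a curve with 2 rises and a trough. Genes of 5 to 10 kb had a median log2 change of 0.29 (n = 1341), those of 10 to 20 kb -0.01 (n = 2085), those of 20 to 50 kb -0.47 (n = 2868) and those over 200 kb 1.37 (n = 360). In the 20 to 50 kb class 18.0% of genes were higher and 56.7% lower, whereas over 200 kb 352 genes were higher and 3 were lower. Of these 360 genes, 80 entered the test only through their level at 5 min, and all 80 were higher. The 280 with a steady-state mean above 0.5 RPKM had 272 higher, 3 lower and a median of 1.35. Between these classes lay genes of 50 to 100 kb, with a median of -0.27 (n = 1471), and of 100 to 200 kb, with 0.55 (n = 786). Genes of 2 to 5 kb had a median of 0.24 (n = 996). Below 2 kb the median was 0.18 (n = 1215), which joined 779 genes under 200 bases at -0.2, with a median of 1.5 reads per library at 5 min, and 436 larger ones at 0.56.

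**Figure D1:**
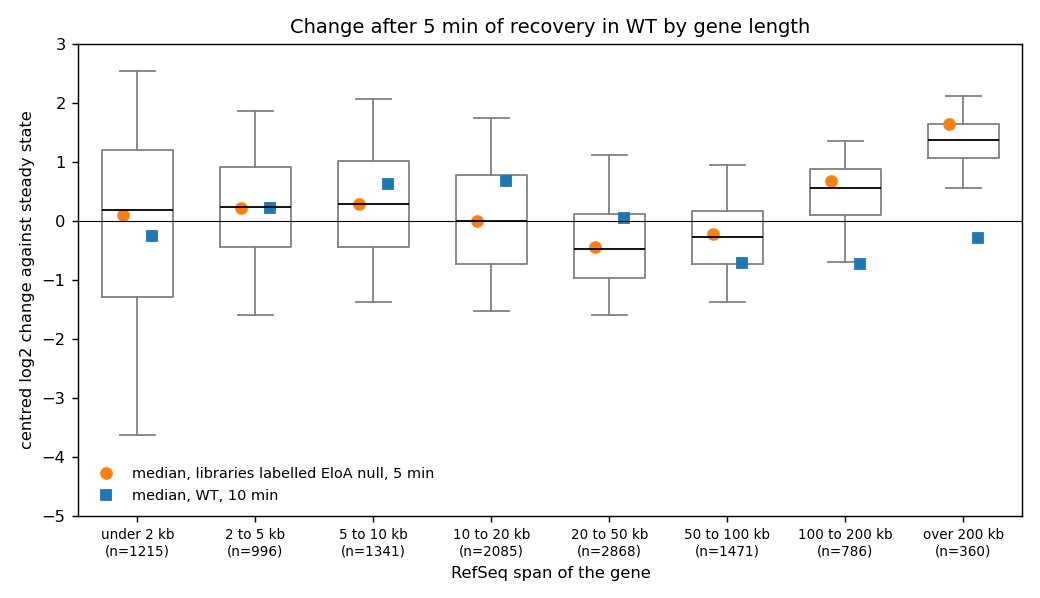
Centred log2 change at 5 min against steady state in WT (vertical axis) for genes grouped by RefSeq span (horizontal axis). Boxes give the quartiles and median and whiskers the 5th and 95th percentiles over genes, and the markers give the medians of the same genes in the libraries labelled EloA null at 5 min and in WT at 10 min. The WT medians run from 0.29 at 5 to 10 kb down to -0.47 at 20 to 50 kb and up to 1.37 over 200 kb.

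The share of all reads moved with length in the same way in both libraries of each condition. Genes over 200 kb held 16.2% and 16.9% of the reads in steady state and 31.6% and 33.4% at 5 min. Genes of 20 to 50 kb held 24.0% and 22.9% in steady state and 15.3% and 14.4% at 5 min. Neither pair of ranges overlapped between conditions. As deposited, the RPKM of a gene over 200 kb was at the median 1.88 times its steady-state value, and that of a gene of 20 to 50 kb was 0.466 times.

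Summarised as 1 value per library, the median log2 level of genes of 2 to 10 kb minus that of genes of 20 to 50 kb was -0.27 and -0.22 in steady state and 0.54 and 0.57 at 5 min. The difference between conditions was 0.8 on the log2 scale. The same measure for genes over 200 kb was -0.99 and -0.82 in steady state and 0.73 and 1.03 at 5 min, a difference of 1.79. In both measures every recovery library lay above every steady-state library. A two-sided exact permutation test of 2 against 2 libraries gave p = 0.333 for each, which is the smallest it can give.

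Cells labelled EloA null had class medians at 5 min of 0.29 for 5 to 10 kb, -0.45 for 20 to 50 kb and 1.65 for over 200 kb. After 10 min of recovery in WT, measured against the same steady-state libraries, the medians were 0.63 for 5 to 10 kb, 0.67 for 10 to 20 kb, 0.04 for 20 to 50 kb, -0.71 for 50 to 100 kb, -0.73 for 100 to 200 kb and -0.29 for over 200 kb. The genes over 200 kb then held 13.9% and 14.6% of the reads.

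The share of a gene's intron bases that lies near its start bore no single relation to the change. The deposited RPKM of genes with introns step by whole reads over the summed intron length. Among genes of 10 to 20 kb, those with 80 to 100% of their intron bases in the first 10 kb had a median change of 0.16 (n = 1040) those with 60 to 80% had -0.19 (n = 791) and those with 40 to 60% had -0.16 (n = 253). The genes with the largest share were also the shortest, with a median span of 12.2 kb against 16.1 and 18.8 kb. In the 20 to 50 kb class the medians were -0.51 at 20 to 40% (n = 1765), -0.4 at 40 to 60% (n = 981), 0.02 at 60 to 80% (n = 63) and -0.61 at 80 to 100% (n = 50). In longer genes the larger share went with the lower median, with -0.26 at 10 to 20% (n = 1261) and -0.45 at 20 to 40% (n = 172) for 50 to 100 kb, and 0.63 at 0 to 10% (n = 701) and 0.01 at 10 to 20% (n = 78) for 100 to 200 kb. There too the genes with the larger share were shorter. Their median spans were 52.3 against 69.5 kb and 103 against 134 kb, so share and length cannot be told apart.

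The rise of the longest genes took in genes of unlike function. Immp2l, an inner mitochondrial membrane peptidase subunit of 932 kb that, like Grip1, entered only through its level at 5 min, stood at 0.325 and 0.385 RPKM in steady state and at 1.3 and 1.47 at 5 min (log2 change 2.25, SE 0.17, adjusted p 1.62e-05). Exoc4, an exocyst subunit of 725 kb, stood at 3.71 and 4.17 and then at 14.7 and 17.6 RPKM (2.55, SE 0.18, adjusted p 1.44e-05). Grip1, a scaffold of glutamate receptors of 634 kb, had the highest change of the class, from 0.259 and 0.261 to 1.56 and 1.36 RPKM (2.66, SE 0.19, adjusted p 1.41e-05). The recovery libraries of all 3 genes lay above the steady-state libraries. In WT at 10 min their changes were 0.07, 0.4 and -0.05.

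Tenm3, a teneurin adhesion receptor and the longest tested gene at 1300 kb, rose by less, from 1.16 and 1.21 to 2.06 and 1.96 RPKM (1.26, SE 0.13, adjusted p 7.18e-05). The 3 genes of the class that fell were Tjp1, which encodes the tight junction protein ZO-1, the coiled-coil protein gene Gse1 and the chromodomain gene Cdyl. Tjp1 went from 3.0 and 3.11 to 1.13 and 1.01 RPKM (-0.89, SE 0.11, adjusted p 0.000145). Gse1 and Cdyl changed by -0.8 and -0.4.

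The genes named next are the 6 largest rises and the 6 largest falls among 6415 genes of at least 2 kb that passed limits on reads and on overlap with other genes. They also had to have an adjusted p under 0.05 and no overlap between the libraries of the conditions. Neither is therefore a result about them. All 6 falls entered the test only through their steady-state level. Of the rises, Gm13262, Svopl and Gm8630 entered only through their level at 5 min. The largest rise was that of Dtnbp1 (chr13:44922079-45002096, minus strand, GRCm38.p6), which encodes a subunit of BLOC-1, a complex for lysosome-related organelles. It stood at 2.76 and 2.58 RPKM in steady state and at 43.9 and 45.9 RPKM at 5 min (log2 change 4.57, SE 0.13, adjusted p 1.93e-06). Both recovery libraries lay far above both steady-state libraries, and the mean at 10 min was 20.1 RPKM.

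Znrd1 (chr17:36954358-36958525, minus strand), a subunit gene of RNA polymerase I, went from 1.59 and 1.51 to 11.7 and 17.7 RPKM (3.68, SE 0.29, adjusted p 2.01e-05). Terf2ip (chr8:112011359-112020528, plus strand), which encodes the telomere protein RAP1, went from 1.1 and 1.21 to 9.37 and 8.74 RPKM (3.41, SE 0.17, adjusted p 7.26e-06). It overlaps Gm6793 on the other strand. The study separated reads by strand, but whether the gene counts used this is not given in the sources used here. Svopl (chr6:37983739-38047009, minus strand), a transporter-like gene, went from 0.506 and 0.461 to 4.53 and 4.64 RPKM (3.55, SE 0.14, adjusted p 5.29e-06). None of these genes had overlapping libraries, as the rule required.

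The noncoding genes Gm13262 and Gm8630 completed the rises, with log2 changes of 4.28 and 3.37. Gm13262 overlaps Taf3 on the other strand and rose from 0.174 and 0.0884 to 3.77 and 2.28 RPKM. Gm8630 rose from 0.217 and 0.187 to 1.96 and 2.13 RPKM. As the rule required, the conditions overlapped in neither gene, and Gm13262 had a mean of only 21.5 reads in steady state.

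The largest falls held genes of 7.84 to 12.7 kb and genes over 100 kb. Cdkn3 (chr14:46760461-46771530, plus strand), a phosphatase that acts on cyclin-dependent kinases, went from 2.5 and 2.39 RPKM to 0.0893 and 0.131 (-3.06, SE 0.2, adjusted p 1.14e-05), and its mean was 1.13 RPKM at 10 min. Has3 (chr8:106870242-106882902, plus strand), a hyaluronan synthase, went from 3.1 and 2.41 to 0.18 and 0.129 RPKM (-2.94, SE 0.19, adjusted p 1.06e-05), with 2.75 RPKM at 10 min. Thg1l, an enzyme that adds a guanosine to histidine tRNA, went from 3.3 and 2.8 to 0.269 and 0.197 RPKM (-2.7, SE 0.19, adjusted p 1.47e-05), with 1.79 RPKM at 10 min. The recovery libraries of all 3 genes lay below the steady-state ones, as the rule required.

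Lcor (chr19:41482682-41596161, plus strand), a nuclear receptor corepressor of 113 kb, went from 5.3 and 6.54 to 0.37 and 0.576 RPKM (-2.87, SE 0.26, adjusted p 3.24e-05). Its mean at 10 min was lower still, 0.156 RPKM. Epc2 (chr2:49450755-49551947, plus strand), of 101 kb and related to a subunit of the NuA4 acetyltransferase, went from 3.63 and 4.21 to 0.378 and 0.334 RPKM (-2.6, SE 0.12, adjusted p 5.75e-06) and stood at 0.864 RPKM at 10 min. The noncoding gene A830082N09Rik had the same change, -2.6, and stood at 0.0986 RPKM at 10 min. The low libraries of these genes were again both recovery libraries, as the rule required.

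**Figure D2:**
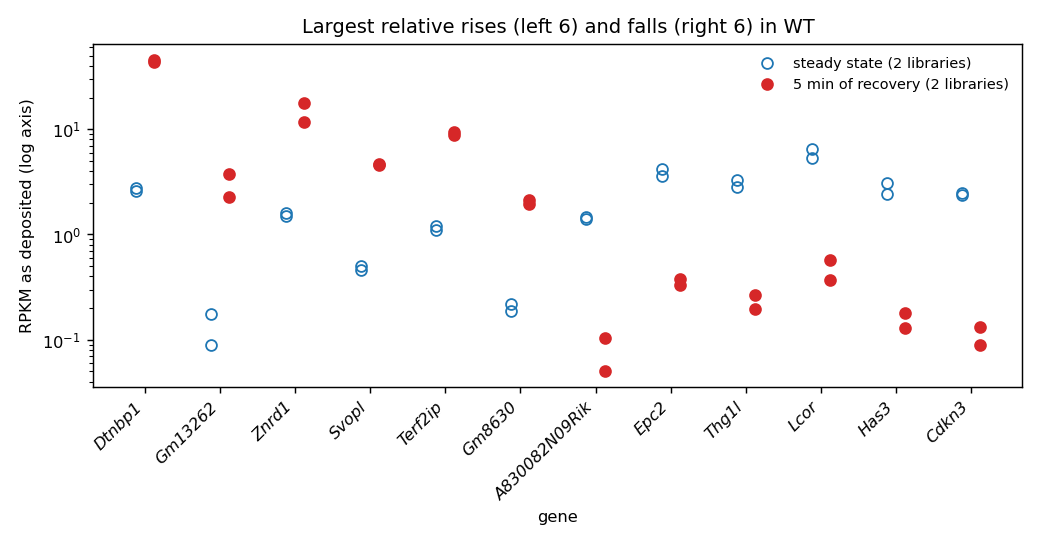
Deposited RPKM (log axis) of the 6 genes with the largest relative rises and the 6 with the largest relative falls, each point 1 WT library, open for steady state and filled for 5 min of recovery. Dtnbp1 reached 43.9 and 45.9 RPKM from 2.76 and 2.58, and Cdkn3 fell to 0.0893 and 0.131 from 2.5 and 2.39. The rule that chose the genes required that the conditions not overlap.

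Set against genes of like length, a few further genes stood out. Above their class median were Nrbf2, an autophagy gene of 18.7 kb at 3.06 and 3.01 RPKM and then 22.8 and 19.7 (length-adjusted log2 change 3.32), the predicted protein-coding gene Gm1123 (3.35) and Rpgr, a ciliary gene on the X chromosome (2.91). Below it were Derl3, a gene of protein degradation at the endoplasmic reticulum (-2.67), Stmn1, which encodes the microtubule destabiliser stathmin (-2.67), and Arhgef4, a guanine nucleotide exchange factor gene (-2.6). Derl3, Stmn1 and Arhgef4 entered the test only through their steady-state level, and Gm1123 only through its level at 5 min. Derl3 had a mean of only 1.5 reads per library at 5 min.

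Several of the largest rises lie next to the end of a long gene that is transcribed towards them, a pattern looked for after the values were seen. The end of Dtnbp1 lies 436 bases from the end of Jarid2, a Polycomb cofactor gene of 191 kb on the other strand. Jarid2 was at 14.0 RPKM in steady state and 10.6 at 5 min, above Dtnbp1 in the first and below it in the second. Nrbf2 lies 10363 bases from the end of Jmjd1c, of 160 kb, and Svopl 15294 bases from that of Trim24, of 97.6 kb. Gm8630 lies 12122 bases from the end of Tle4, of 150 kb, and Gm1123 2712 bases from that of Pik3cb, of 102 kb. The arrangement is not limited to rises. Has3, among the largest falls, lies 18803 bases from the end of Tango6, of 168 kb, which is transcribed towards it.

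Over 8110 genes of 2 to 100 kb, 65 had within 20 kb the end of a gene over 100 kb that was read at no less than 2 times their own steady-state RPKM. Their median length-adjusted change was 1.13, and 26.2% of them were more than 4-fold higher, against 2.15% of all genes examined. The 210 genes next to a gene over 100 kb read at under 2 times their own steady-state RPKM had a median of 0.0. The 4482 genes with no gene ending towards them within 20 kb had -0.04. The ratio that sorts the 65 genes uses their own steady-state RPKM, which is also the base of the change. Some of the 65 entered the test only through their level at 5 min, which selects for a rise. Among them were Gm8630 and Gm1123, with steady-state means of 0.202 and 0.323 RPKM. How many of the 65 entered in this way was not counted. Of the 174 genes examined that were more than 4-fold higher, 17 were among the 65. Whether reads from the long gene's downstream region entered the counts was not tested.

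**Figure D3:**
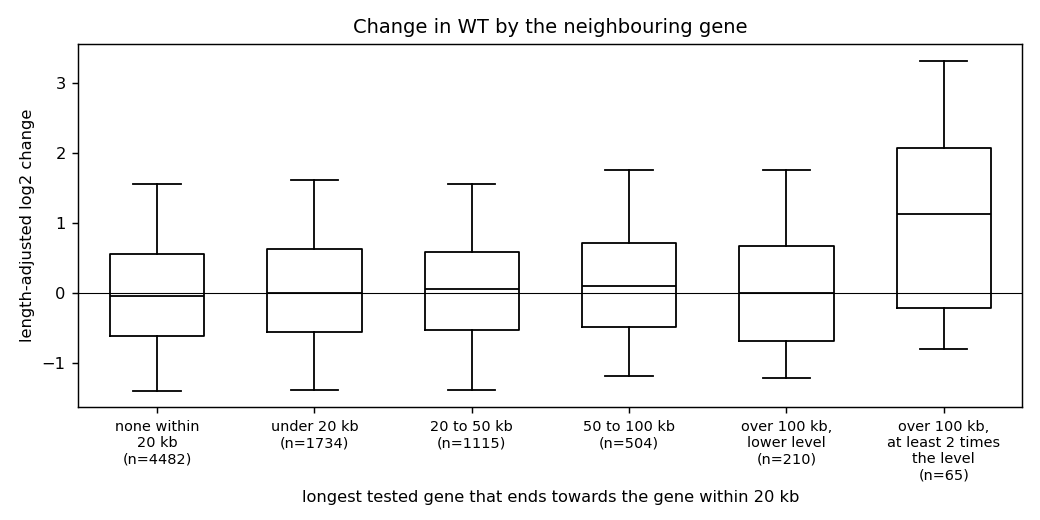
Length-adjusted log2 change in WT (vertical axis) for genes of 2 to 100 kb grouped by the longest tested gene that ends towards them within 20 kb (horizontal axis). Boxes give quartiles and median and whiskers the 5th and 95th percentiles over genes. The 65 genes beside a gene over 100 kb with no less than 2 times their level have a median of 1.13. The 210 beside one with under 2 times their level, marked as lower level, have a median of 0.0.

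Groups of genes fixed by name differed in how they stood at 5 min. All group medians below are centred log2 changes, to be read beside -0.04 for all tested genes and the shares of 33.3% higher and 35.3% lower. Quantile normalization gives every library the same distribution of values, and the median under it is quoted beside most groups because several turned in sign or came close to 0. Without any centring the medians of 6 groups also turned negative, at -0.1 for immediate early genes, -0.43 for P-TEFb, 7SK and super elongation complex genes, -0.28 for pausing and elongation factor genes, -0.07 for p53 targets, -0.31 for ribosomal protein genes and -0.48 for small nucleolar RNAs.

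**Figure D4:**
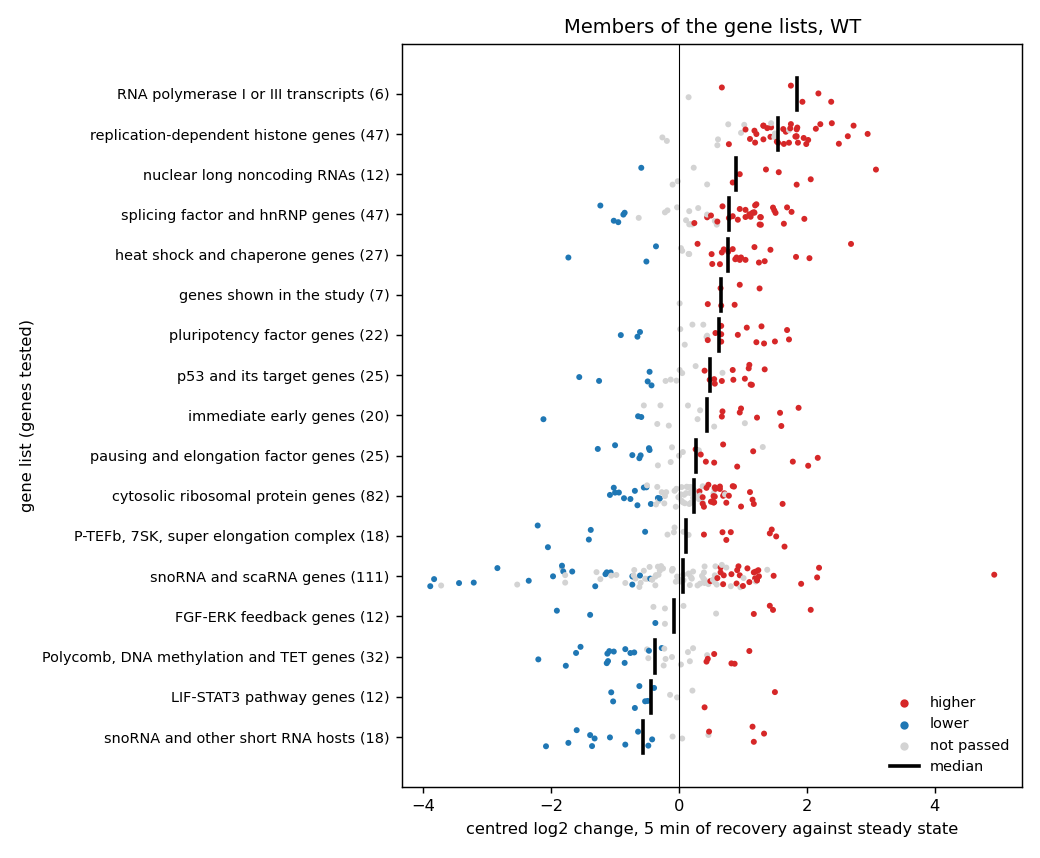
Centred log2 change at 5 min against steady state (horizontal axis) of every tested member of 17 gene lists (vertical axis), with 1 point per gene, coloured by whether it passed the test as higher or lower, and a bar at the list's median. The replication-dependent histone genes have a median of 1.55 with no member lower, and the snoRNA host genes have a median of -0.56.

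Genes of the release machinery itself were split. Of 18 P-TEFb, 7SK and super elongation complex genes, 8 were higher and 5 lower (median 0.11, and 0.01 after quantile normalization). Without the second FB5 library the median was 0.04 and without the first 0.24. Cdk9, the drug's target, stood at 4.8 and 3.72 RPKM in steady state and 7.53 and 8.58 at 5 min (1.45, SE 0.23, adjusted p 0.000581), with no overlap. Ccnt1, its cyclin partner, had overlapping RPKM, 4.5 and 4.23 against 4.41 and 5.24, yet passed after centring (0.68, SE 0.22, adjusted p 0.0216).

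Ell2, a subunit of the super elongation complex of 64.9 kb, went the other way, from 2.71 and 2.94 to 0.32 and 0.347 RPKM (-2.21, SE 0.13, adjusted p 7.74e-06). Both its recovery libraries lay below the steady-state ones, and at 10 min its change was -2.33. Of 25 pausing and elongation factor genes, 10 were higher and 7 lower (median 0.26, -0.01 after quantile normalization and 0.12 without the second FB5 library). Paf1, which gives the PAF1 complex its name, went from 1.59 and 1.42 to 5.14 and 4.55 RPKM (2.17, SE 0.14, adjusted p 1.18e-05).

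Eloa, the gene of Elongin A, went in WT from 1.18 and 1.16 to 2.96 and 2.82 RPKM (1.78, SE 0.18, adjusted p 5.32e-05). Cells labelled EloA null stood at 1.96 and 1.89 RPKM in steady state and 5.14 and 6.25 at 5 min, above WT in each, so reads of the gene do not check that label, and the first of their steady-state libraries carries a wild-type genotype label beside a title that names it null. Cdk12, a kinase of elongating polymerase, had the lowest change of the group, -1.27.

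Immediate early genes, which respond to signals within minutes, were not uniformly ahead. Of 20 tested, 8 were higher and 3 lower (median 0.44, and 0.23 after adjustment for length). Relative to all genes the group's median was 0.48, and without the second FB5 library it was 0.08. Cyr61, a matricellular protein gene, stood at 3.15 and 3.02 RPKM and then 7.54 and 8.25 (1.87, SE 0.13, adjusted p 1.36e-05). Fos, the subunit of AP-1 best known for rapid induction, was at 0.294 and 0.726 in steady state and 0.237 and 0.185 at 5 min (-0.34, SE 0.42, adjusted p 0.49), and its centred values overlapped. Myc was at 0.43 and 0.477 and then 0.579 and 0.691 RPKM (0.95, SE 0.34, adjusted p 0.0348). Arc, a neuronal immediate early gene at 1.24 and 0.736 and then 0.0 and 0.18 RPKM, had the lowest change, -2.12, and with the replicate number as a block its adjusted p was 0.077.

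Heat shock and chaperone genes were for the most part higher, 20 of 27, with 3 lower (median 0.77, and 0.26 after quantile normalization). Hsp90aa1, the inducible HSP90, stood at 24.7 and 22.6 RPKM in steady state and 99.4 and 111 at 5 min (2.69, SE 0.14, adjusted p 7.36e-06). Hspe1, the mitochondrial co-chaperonin, went from 6.85 and 6.92 to 19.6 and 19.5 RPKM (2.04, SE 0.14, adjusted p 1.44e-05), and Hspa5, the chaperone BiP of the endoplasmic reticulum, from 6.88 and 6.65 to 13.7 and 20.2 (1.83, SE 0.23, adjusted p 0.000172). All 3 genes are short, from 3.17 to 5.36 kb, and their libraries did not overlap. Bag3, a co-chaperone, had the lowest change of the group, -1.73.

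Splicing factor and hnRNP genes behaved alike in count, with 29 of 47 higher and 5 lower (median 0.78, and 0.17 after quantile normalization). Srsf3, a serine and arginine rich splicing factor, went from 31.3 and 27.9 to 61.5 and 77.3 RPKM (1.76, SE 0.23, adjusted p 0.000241). Hnrnpul2 had the highest change, 1.96, and Sf3b3, a core subunit of the U2 particle, the lowest, from 25.5 and 24.8 to 7.44 and 7.14 RPKM (-1.23, SE 0.11, adjusted p 2.79e-05). The ribosomal protein genes, also short and strongly transcribed, had 27 of 82 higher and 13 lower, and their median of 0.23 turned to -0.4 after quantile normalization. It was -0.01 after adjustment for length, 0.08 without the second FB5 library and 0.37 without the first.

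Pluripotency factor genes had 13 of 22 higher and 3 lower, with a median of 0.62 that became -0.03 after quantile normalization and 0.41 without the second FB5 library. Sox2, a core factor of the pluripotent state, went from 11.5 and 13.2 to 25.8 and 29.1 RPKM (1.69, SE 0.17, adjusted p 5.18e-05). Tbx3 went from 25.8 and 23.2 to 61.0 and 50.6 RPKM (1.72, SE 0.11, adjusted p 1.01e-05) and Klf4 from 10.6 and 11.9 to 21.1 and 22.9 (1.5, SE 0.13, adjusted p 3.34e-05). The conditions did not overlap in these genes. Prdm14 had the lowest change of the group, -0.91.

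The pathway that LIF signals through stood lower, with 7 of 12 genes lower and 2 higher (median -0.44, and also -0.44 after quantile normalization). The median span of its genes was 38.1 kb and their length-adjusted median was -0.24. Lifr, the LIF receptor, went from 3.63 and 3.98 to 1.22 and 1.15 RPKM (-1.06, SE 0.13, adjusted p 0.000184), and Stat3, the transcription factor it activates, from 2.46 and 2.46 to 0.899 and 0.642 (-1.03, SE 0.1, adjusted p 5.33e-05). In both genes the recovery libraries were the low ones. The FGF-ERK feedback genes were split, 4 higher and 3 lower of 12, with a median of -0.08 that was 0.14 after quantile normalization and 0.13 without the first FB5 library. Their extremes were the phosphatase Dusp4 at 2.06 and the receptor antagonist Il17rd at -1.91.

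Of 25 p53 and p53 target genes, 13 were higher and 5 lower, with a median of 0.48 that became 0 to 2 decimals after quantile normalization. Bax, which permeabilises mitochondria in apoptosis, went from 7.37 and 7.9 to 13.8 and 12.8 RPKM (1.34, SE 0.15, adjusted p 8.35e-05). Gdf15, a secreted stress cytokine, went from 0.645 and 0.913 to 0.18 and 0.0468 (-1.56, SE 0.39, adjusted p 0.00709) and had an adjusted p of 0.0508 without the second steady-state library.

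Polycomb, DNA methylation and TET genes had 15 of 32 lower and 6 higher (median -0.37, and -0.56 after quantile normalization). Phf1, an accessory subunit of PRC2, went from 1.36 and 1.42 to 0.0854 and 0.166 RPKM (-2.2, SE 0.27, adjusted p 0.000169). Uhrf1, the cofactor of maintenance methylation, went from 6.7 and 6.31 to 1.52 and 0.987 (-1.77, SE 0.15, adjusted p 2.97e-05). Core PRC2 genes differed in direction, with Ezh2 at -0.84 and Eed at 0.87.

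Among 7 genes that the study itself shows, chosen there on these cells and so no independent evidence of direction, 6 were higher and none lower, and the median of 0.66 was 0.03 after quantile normalization. Kat6b, a histone acetyltransferase gene of 173 kb, went from 21.1 and 22.6 to 35.7 and 36.4 RPKM (1.26, SE 0.15, adjusted p 0.000111), and its 10-min change was -0.89. The values of Nanog, Epha2 and Tet2 lost their call under several alternatives, and Dhx9, at 0.01, did not pass.

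Nuclear noncoding RNAs were for the most part higher. Malat1, an abundant nuclear RNA, stood at 125 and 124 RPKM in steady state and 764 and 688 at 5 min (3.08, SE 0.16, adjusted p 7.36e-06), with 175 RPKM at 10 min. Pvt1, of 222 kb, went from 5.55 and 5.29 to 13.7 and 13.3 RPKM (1.84, SE 0.12, adjusted p 1.06e-05). Of 12 nuclear long noncoding RNAs 7 were higher and 1 lower (median 0.89), while their median at 10 min was -0.24. The 1 lower gene was Firre at -0.59.

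Hosts of small nucleolar RNAs and other short noncoding RNAs were lower in 11 of 18 cases and higher in 4, with a median of -0.56 that was -1.15 after quantile normalization. Mir17hg, the host of the miR-17 to miR-92 cluster, went from 15.7 and 15.8 to 2.95 and 2.06 RPKM (-2.08, SE 0.17, adjusted p 2.15e-05). Zfas1 went from 36.0 and 35.8 to 7.2 and 7.54 (-1.73, SE 0.15, adjusted p 2.56e-05) and Gas5 from 67.6 and 65.1 to 18.7 and 24.6 (-1.08, SE 0.24, adjusted p 0.00347). In these hosts the recovery libraries were below the steady-state ones, whereas Snhg1 rose from 26.1 and 31.6 to 40.7 and 48.2 RPKM (1.17, SE 0.23, adjusted p 0.00221).

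The small nucleolar and Cajal body RNAs themselves had 26 of 111 higher and 19 lower, with a median of 0.07 that was -0.5 after quantile normalization and 0.24 without the first FB5 library. MicroRNA genes had 89 of 651 higher and 139 lower (median -0.3, and -0.13 without the second FB5 library), and most rest on few reads. The extreme member, Mir299a, was listed at 0 in both steady-state libraries and at 1.61 and 6.27 RPKM at 5 min, and it lost its call without either steady-state library or without the second recovery library, with adjusted p from 0.0627 to 0.0976.

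Replication-dependent histone genes were higher in 36 of 47 cases and lower in none (median 1.55, and 1.45 after quantile normalization), while their median at 10 min was -0.41. Hist1h2bc went from 1.53 and 1.18 to 5.65 and 6.52 RPKM (2.64, SE 0.18, adjusted p 1.37e-05). Hist1h1b, a linker histone gene, had overlapping RPKM, 5.8 and 5.82 against 8.43 and 5.57, and passed after centring (0.78, SE 0.18, adjusted p 0.00495). Genes of this family are near-identical copies, and the study kept only uniquely aligned reads. Reads shared by copies may therefore be missing, and single values are uncertain.

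The list of RNA polymerase I and III transcripts had 5 of 6 tested members higher (median 1.84), but it also holds Terc, an RNA polymerase II transcript. Without Terc 4 of 5 were higher (median 1.93). Rpph1, the RNA of RNase P, made by RNA polymerase III, went from 16.2 and 14.0 to 70.9 and 31.1 RPKM (2.18, SE 0.37, adjusted p 0.000929). Rmrp, the RNA of RNase MRP, stood at 23.6 and 10.3 and then at 105 and 29.9 (2.38, SE 0.64, adjusted p 0.00987) and lost its call under quantile normalization (adjusted p 0.066), without the second steady-state library (0.0696) or without the first recovery library (0.0636). Rn45s, the ribosomal RNA precursor of RNA polymerase I, was at 1530 and 1640 RPKM and then 1850 and 1610 (0.67, SE 0.18, adjusted p 0.0089), so its RPKM overlapped and its centred values did not. The libraries were depleted of ribosomal RNA before sequencing, and how far that touched Rn45s was not tested.

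Promoter sequence is shown for 2 short genes that rose and 2 genes that fell, to set beside the values above. The sequences are from RefSeq on GRCm38.p6, 130 bases before to 20 bases after the annotated start, 5′ to 3′ on the gene's strand, all 4 on the plus strand. Capitals mark matches on either strand to the TATA box, searched as TATAAA, to the CCAAT box, searched by those 5 letters, to the GC box, searched as GGGCGG, or to a heat shock element of 3 inverted repeats, and neighbouring matches can share letters. They lie at chr1:55088018-55088167 for Hspe1, chr17:29032530-29032679 for Srsf3, chr19:41482552-41482701 for Lcor and chr13:75707354-75707503 for Ell2.
Hspe1: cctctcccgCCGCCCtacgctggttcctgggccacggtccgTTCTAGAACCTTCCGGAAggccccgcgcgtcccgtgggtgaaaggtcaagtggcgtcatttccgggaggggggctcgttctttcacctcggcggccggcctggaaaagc
Srsf3: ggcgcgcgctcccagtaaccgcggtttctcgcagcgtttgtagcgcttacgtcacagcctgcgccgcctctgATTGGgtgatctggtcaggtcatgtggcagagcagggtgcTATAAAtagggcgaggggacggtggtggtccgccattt
Lcor: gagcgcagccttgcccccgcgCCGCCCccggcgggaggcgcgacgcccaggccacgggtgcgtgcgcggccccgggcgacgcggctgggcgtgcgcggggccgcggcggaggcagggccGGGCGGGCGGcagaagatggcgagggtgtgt
Ell2: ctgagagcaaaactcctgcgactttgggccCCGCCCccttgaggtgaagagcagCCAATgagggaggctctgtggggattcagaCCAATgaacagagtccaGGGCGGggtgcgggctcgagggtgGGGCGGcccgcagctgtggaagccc
Hspe1 held a heat shock element and a GC box and Srsf3 a TATA box and a CCAAT box. Lcor held GC boxes and Ell2 CCAAT and GC boxes. These boxes do not set the falls apart from the rises. Sox2 and Paf1, which rose, and Cdkn3, which fell, held CCAAT and GC boxes in the same window. Nrbf2, which rose, held only GC boxes there, as Lcor did.

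Across 5550 tested protein-coding genes of 2 to 50 kb with a RefSeq promoter, the motifs were counted in the whole window of 250 bases before to 50 after the start, a search made after the values were seen. A TATA box stood in 7.11% of the 1688 higher genes and in 6.0% of the 2250 lower ones, near the 6.68% of the tested genes, which stands against 14.2% of 27025 promoters in all. A GC box stood in 62.3% of higher genes, 67.5% of lower genes, 64.5% of tested genes and 35.9% of all promoters. The CCAAT box stood in 41.9% of higher genes, 41.6% of lower genes, 41.9% of tested genes and 37.9% of all promoters. The heat shock element stood in 27 of the tested genes (0.486%), of which 44.4% were higher, against 30.3% of those without it, and in 0.529% of all promoters.

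Within protein-coding genes of 2 to 50 kb, steady-state level and base composition went with the change after adjustment for length. From the lowest to the highest quintile of steady-state RPKM the median length-adjusted change went from -0.34 to 0.38, although that RPKM is also the base of the change. From the lowest to the highest quintile of GC content it went from 0.36 to -0.49. By first-intron length the quintile medians stayed between -0.06 and 0.07. For the cells labelled EloA null, the ends were -0.43 and 0.45 for level and 0.48 and -0.67 for GC content. Removing each library's trend with GC content left 3842 genes higher and 4044 lower.

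**Figure D5:**
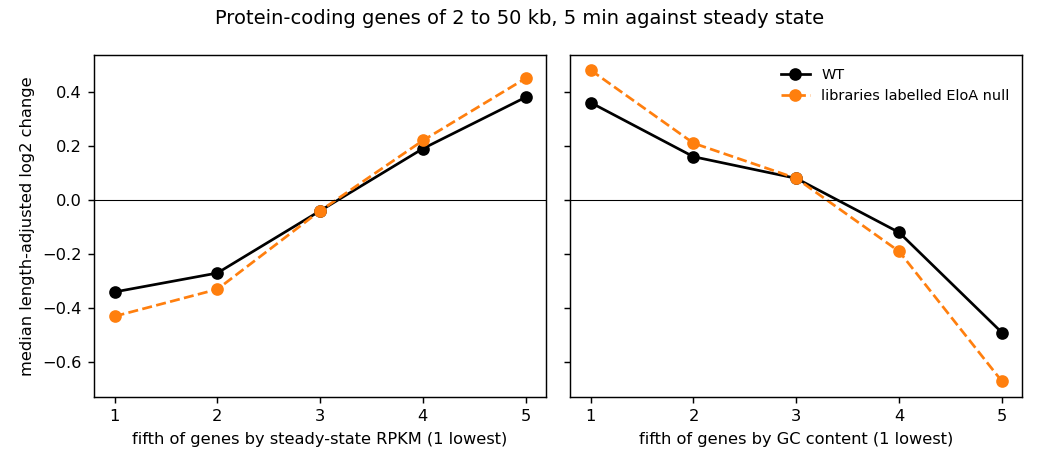
Median length-adjusted log2 change (vertical axis) of protein-coding genes of 2 to 50 kb in quintiles of steady-state RPKM (left) and of GC content of the gene (right), for WT and for the libraries labelled EloA null. In WT the medians run from -0.34 to 0.38 with level and from 0.36 to -0.49 with GC content.

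Genes of few exons stood higher than genes of many. The median length-adjusted change was 0.33 for the 105 genes of 1 exon, 0.25 for the 1346 genes of 2 to 4 exons, -0.01 for 5 to 8 exons and -0.12 for the 863 genes of over 16 exons. Long noncoding RNA genes of at least 2 kb had a median of 0.14 (n = 473), against 0 to 2 decimals for protein-coding genes of that length.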

How the data were processed

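Nascent RNA was labelled with BrU, enriched with an antibody, depleted of ribosomal RNA and sequenced, per the labels. The authors aligned reads to mm10, counted them over whole RefSeq genes and used edgeR to make RPKM. The submitters' processing notes name Bowtie2 2.3.4.3, featureCounts 1.6.1, SAMtools, HOMER 4.10.3 and dm3 without roles. The paper describes Drosophila spike-in RNAs made with BrU, added to the RNA of each sample, and alignment to dm3 beside mm10. The RPKM used here carry no scale from that spike-in. The deposited RPKM tables hold 24984 genes, 6 columns of the authors' means, which were not tested, and no other per-sample column left unused (0). Between 96.86% and 97.26% of the genes with introns that were checked gave whole reads (tolerance 0.05) with the summed intron length of the gene and 9.379% to 10.28% with its span, so the counts of genes with introns were divided by that length. Which reads were counted is not shown by this. The read numbers and library sizes given were worked out from these steps.

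WT FB5 was compared with WT B10 by limma 3.58.1 (R 4.3.3, with an intensity trend) on log2(RPKM + 0.1), each library centred on its median over genes with a mean RPKM above 0.5 in either condition, with 12 libraries sharing the spread. The pseudocount makes changes of low genes smaller. Fold changes are therefore on that scale. Gene names joined the tables, 4 rows with repeated names were left out, and 24418 names matched RefSeq by symbol and 406 by an older symbol. Spans, introns, GC content and promoters are from RefSeq (GRCm38.p6). A length-adjusted change is the change minus the median of the gene's length class. Named genes had at least 2 kb, under 50% overlap with other genes and a mean of 50 reads or more, and were the 6 largest rises and falls overall and the 3 highest and lowest for their length in 3 classes. Those named overall also needed an adjusted p under 0.05 and no overlap between the conditions. Those named for their length needed length-adjusted values that did not overlap. The members, lists and tests were chosen with earlier results of these data known. Alternatives covered pseudocounts, filters, centring, variance, libraries and GC content. The fit was tested on simulated data.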

Additional observations from a re-analysis of the deposited data

Results flagged for a closer look

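The change of Hist1h2ad, a histone H2A gene, differed between genotypes. It was higher in WT at 5 min, from 0.235 and 0.201 to 1.9 and 1.33 RPKM (log2 change 2.95), and its change in the libraries labelled EloA null was 0.78, which makes the difference, null minus WT, -2.18 (limma interaction, adjusted p 0.0167). It rests on means of 9.5 reads at 5 min and 3.0 in steady state in WT, and its sequence is shared with near-identical copies. Tested genes were chosen by their WT levels alone. Hist1h2ad entered only through its WT mean at 5 min, 1.61 RPKM against 0.218 in steady state, which favours a larger change in WT. In all, 13 genes (0.116% of those tested) passed that test and 623 had an unadjusted p under 0.05. Most of the 13 are microRNA genes, and when only genes with at least 20 reads were tested, an alternative chosen after seeing the data, 1 passed.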

How the results depend on the processing

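Of 59 genes followed singly, which include members of the gene lists, 48 kept their call of the main fit, passed or not, under each alternative that gave them a value. Not every alternative gave each gene a value. Of 908 values 871 stayed on the same side of the threshold. Filters change which genes are tested and centred on, so counts under them do not compare as shares with the main fit. The main fit tested 11162 genes, and 8306 had RPKM above 0.5 in both conditions. Counts of higher genes were 12329 with no filter on low values, 1890 with a mean RPKM above 2 in either condition and 1970 without centring. Counts of lower genes were 2487 with RPKM above 0.5 in both conditions, 2252 with RPKM above 2 and 6082 without centring. Genes over 2-fold higher numbered 927 with a pseudocount of 1, 1148 with RPKM above 0.5 in both, 1063 with RPKM above 2 and 845 without centring. Genes over 2-fold lower numbered 634 and 319 with pseudocounts of 0.5 and 1, 3196 with no filter, 984 with RPKM above 0.5 in both, 960 with RPKM above 2 and 3705 without centring. The difference between genotypes gave 1 gene with at least 20 reads and 5 to 28 when 1 library was left out, 28 without the second FB5 library. Centred on genes over 50 kb, the median of all genes was -0.21. Without centring Bc1 turned to -0.39, Dhx9 to -0.53 and Tet2 to -0.09, and under quantile normalization Dhx9 was -0.61, Tet2 -0.22 and Epha2 -0.01. The cause was not tested.

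List medians minus that of all genes moved as follows. With RPKM above 0.5 in both conditions they were 0.22 for immediate early, 0.09 for pausing and elongation, 0.59 for heat shock, 0.56 for splicing, 0.01 for ribosomal, 1.3 for histone, -0.78 for snoRNA host, 0.61 for nuclear lncRNA, -0.15 for snoRNA, 0.44 for study and -0.03 for microRNA genes. With RPKM above 2 they were -0.08 for P-TEFb, 0.54 for heat shock, 0.61 for splicing, 0.04 for ribosomal, -0.75 for snoRNA host, 0.75 for nuclear lncRNA, -0.13 for snoRNA, -0.4 for Polycomb, 0.47 for study and -0.32 for microRNA genes. With no filter they were 0.15 for immediate early, -0.18 for P-TEFb, -0.03 for pausing and elongation, -0.37 for FGF-ERK, 0.18 for p53, 0.48 for heat shock and for splicing, -0.06 for ribosomal, 1.25 for histone, -0.85 for snoRNA host, 0.6 for nuclear lncRNA, -0.23 for snoRNA, -0.67 for Polycomb, 0.37 for study and -0.6 for microRNA genes. The microRNA genes were at -0.45 with a pseudocount of 0.01. With 0.5 the values were 0.36 for immediate early, 0.68 for splicing, 1.25 for histone, -0.62 for snoRNA host, 0.74 for nuclear lncRNA and -0.11 for microRNA genes. With 1 they were 0.27 for immediate early, 0.15 for pausing and elongation, 0.57 for heat shock and for splicing, 0.05 for ribosomal, 1.03 for histone, -0.68 for snoRNA host, 0.59 for nuclear lncRNA, -0.2 for Polycomb, 0.46 for study and -0.08 for microRNA genes. Quantile normalization gave 0.38 for immediate early, 0.07 for pausing and elongation, 0.04 for pluripotency, 0.07 for p53, 0.34 for heat shock, 0.24 for splicing, -0.33 for ribosomal, -1.07 for snoRNA host, 0.71 for nuclear lncRNA, -0.43 for snoRNA, -0.49 for Polycomb, 0.1 for study and -0.35 for microRNA genes. Leaving out 1 library gave 0.08 to 0.67 for immediate early, 0.15 to 0.33 for pausing and elongation, 1.31 to 1.78 for histone, -0.6 to -0.4 for snoRNA host, -0.45 to -0.23 for Polycomb and -0.28 to -0.1 for microRNA genes. It also gave 0.07 to 0.27 for P-TEFb and for snoRNA, -0.09 to 0.16 for FGF-ERK, 0.11 to 0.4 for ribosomal and 0.44 to 0.89 for pluripotency genes.

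Whether equal replicate numbers pair libraries across conditions is not given. Replicate differences correlated at 0.05 between conditions, which cannot show how the libraries were made. With the replicate block 3489 genes were higher and 3578 lower, of which 3343 and 3453 were also called without it, and Arc (adjusted p 0.077) and Nanog (0.0528) missed the threshold. At 5 min, with 212 reads for the median gene, falls of low genes are the least certain.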

Other observations

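The change at 5 min was higher for genes on the X chromosome than for those of the autosomes, which no comparison above describes. In level the X-linked genes lay below the autosomal ones in all 4 libraries. The 342 tested X-linked genes had a median length-adjusted log2 change of 0.42 in WT, with 45.9% higher and 15.5% lower, and of 0.54 in the libraries labelled EloA null. The medians of the autosomes ran from -0.16 on chromosome 8 to 0.19 on chromosome 18. By library, the median length-adjusted level of the X-linked genes was -0.67 and -0.58 in steady state and -0.2 and -0.03 at 5 min, so that the conditions did not overlap, while that of autosomal genes lay between 0.0 and 0.02.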
